A study of Mus musculus with 48 samples.

Results

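Lungs of XYF and XYM mice at P21, after recovery from neonatal hyperoxia, were compared with room-air lungs of the same age and genotypes. These are 12 of the 48 animals of the series, chosen by genotype, age and treatment, with 3 animals in each of 4 groups. The 2 genotypes were pooled because, in an earlier fit of these data, 3 animals against 3 had given no called gene in either. The fit used here does not bear this out for XYF mice. With 3 against 3 alone, it called 26 of 16873 tested genes in XYF mice (1974 at an unadjusted p under 0.05, 311 by DESeq2). In XYM mice it called 0 of 16422 (1377 at an unadjusted p under 0.05, 58 by DESeq2). In the FCG mouse model the testis-determining gene Sry sits on an autosome and is missing from the Y chromosome, so XYF mice carry X and Y with ovaries, and XYM mice carry X and Y with testes. All were on the C57BL/6J background. The exposed pups breathed 95% oxygen (O2), and the others room air (RA). The series text places the exposure on days 1 to 5, while the paper ends it on an earlier day, and both give P21 for the collection used here.

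In newborn mice the lung is still dividing its airspaces, and excess oxygen slows cell division and the growth of alveoli and capillaries. Such exposure serves as a model of bronchopulmonary dysplasia. Whole lung holds epithelium, endothelium, fibroblasts, resident and circulating immune cells and blood. In mice it also holds a sleeve of heart muscle around the pulmonary veins. In RNA of whole lung, fewer cells of a type and less RNA per cell cannot be told apart.

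Total counts ran from 6331654 to 23552915 in the RA lungs (median 11339944) and from 15395896 to 31348391 in the O2 lungs (median 22501446), so the exposed lungs were read more deeply. The part of this depth gap in the results was tested only by thinning all libraries to 6331654 counts, which left 56 called genes. P-values set the size of a change against the spread between these animals within genotype and treatment. Litter and cage were not part of the fit. The 4 Y chromosome genes used as a label check, Eif2s3y, Kdm5d, Ddx3y and Uty, summed to 157 to 229 CPM (counts scaled to a fixed library total) in the 12 lungs. In the 12 XX lungs at P21 they summed to at most 1.78 CPM. Lung identity was clear from surfactant genes: the AT2 (alveolar type II cell) list summed to 33088 to 47154 CPM in RA and 34212 to 42575 CPM in O2. Libraries 42, 46 and 47 of the RA arm and 59 and 60 of the O2 arm stood apart, with 136 to 3301 CPM of esophageal and squamous markers against 1.04 to 3.54 CPM in the other 7. Skeletal muscle markers followed the same libraries, at 69.4 to 2240.2 CPM against 11.1 to 31.5 CPM. The total and the counts of the main groups are given with and without these 5 libraries. Of 77 named genes that were called with 12 animals, 5 were still called without them (Nppa, Mybphl, Myl4, Rsad2 and Spink5), and all 77 kept their sign. With 1 animal left out at a time, 29 of the 77 were called in all 12 fits and 25 in fewer than 6.

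With genotype as a blocking factor, 123 of 17324 tested genes were called, or 0.710%, at an adjusted p under 0.05 and a change of at least 1.5-fold in the quasi-likelihood test of edgeR. Of these, 104 were lower after hyperoxia (0.600% of tested genes) and 19 were higher (0.110%). At the adjusted p alone 200 genes passed (1.15%; 71 higher, 0.410%, and 129 lower, 0.745%), and 752 passed an unadjusted p with the fold minimum (4.34%). The unadjusted p alone, under 0.05, was passed by 2954 genes (17.1%), the share to set beside list counts at that p. DESeq2 called 317 of 17300 (1.83%), 116 of them among the 123. Slc4a1 stood just inside the threshold (adjusted p = 0.0475) and Btnl10 just outside it (adjusted p = 0.0503). The lower genes fell by a median of 1.10 on the log2 scale and 57 of them at least 2-fold, while the higher genes rose by a median of 0.88 and 6 of them at least 2-fold. The O2 and RA animals did not overlap in 83 of the 123, against 2.14% of all tested genes, a share that the call itself makes high. The lower genes included members of the lists for heart muscle (10), cell division (7), red blood cells (5), natural killer (NK) cells (3) and interferon response (3). The median change of all tested genes was 0.00 on the log2 scale. Without the 5 libraries that stood apart, 17 genes were called and 5 of them were among the 123. With single animals left out, the count ran from 42 without RA animal 47 to 155 without O2 animal 59, and was 43 without 63, 49 without 46, 55 without 60 and 74 without 64.

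**Figure D1:**
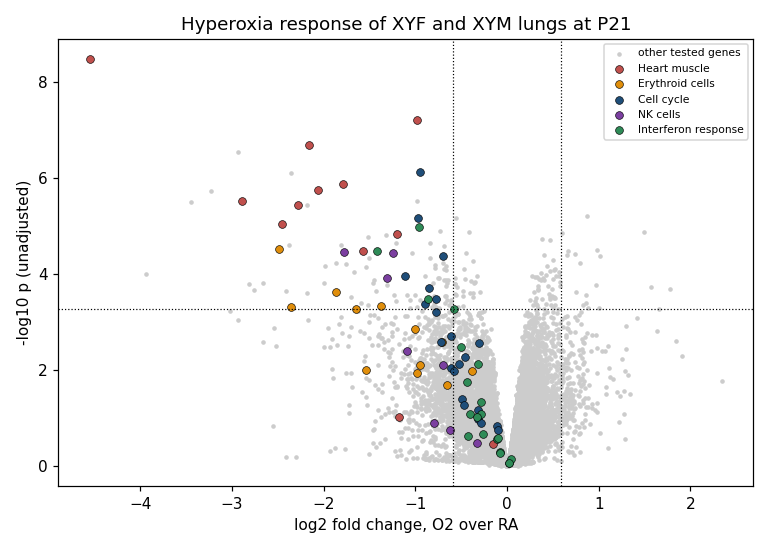
Log2 fold change, O2 over RA (x axis), against -log10 of the unadjusted p (y axis) for 17324 genes in 12 XY lungs at P21; coloured points are members of 5 gene lists, and dotted lines mark the 1.5-fold minimum and the largest p called. Heart muscle genes lie farthest to the upper left, led by Nppa at -4.55.

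Heart muscle had the most called genes of the 46 lists. Of 12 listed genes, all tested, 10 were called lower and 0 higher, with a median of -1.93 on the log2 scale against 0.00 for all tested genes. The summed level of the list was 442, 561 and 709 CPM (lowest, median and highest of 6) in RA and 76.1, 160 and 212 CPM in O2. The highest exposed lung thus stayed well under the lowest room-air lung. At the head stood Nppa (ENSMUSG00000041616, chr4:148000722-148002079 on GRCm38), the precursor of atrial natriuretic peptide. Nppa measured 3.06, 4.32 and 9.08 CPM in RA and 0.0577, 0.211 and 0.333 CPM in O2. Its log2 fold change was -4.55 ± 0.32 (SE, adjusted p = 5.67e-05), a 23.4-fold lower level. The exposed level rests on 30 reads in 6 libraries, against 402 in room air.

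Myosin and thin filament genes moved with it. Myh6, the alpha heavy chain that drives fast contraction of heart muscle, measured 82.3, 159 and 216 CPM in RA and 5.07, 20.0 and 37.4 CPM in O2. Its level was 7.41-fold lower (log2 -2.89 ± 0.37, adjusted p = 0.00439). The light chains of atrial muscle, Myl4 and Myl7, fell by 2.16 and 2.28 on the log2 scale. Myl7 went from 53.5, 72.4 and 80.0 CPM to 4.09, 13.6 and 27.2 CPM. In both genes every exposed lung lay under every room-air lung. The troponin genes Tnnt2 and Tnni3 fell by 2.07 and 1.79. Mybpc3 (myosin-binding protein C) fell by 2.46, and Actc1 (cardiac actin) by 1.57. Ryr2, the calcium release channel, fell by 1.20, from 9.95, 18.6 and 22.8 CPM to 5.76, 7.62 and 10.1 CPM, with 1 crossing, of RA animal 42 below O2 animal 64. Ankrd1, a stress-responsive protein of the sarcomere, had the second smallest adjusted p, with 12.9, 14.1 and 17.1 CPM in RA against 6.61, 7.38 and 8.02 CPM in O2 (log2 -0.98 ± 0.09, adjusted p = 0.000525).

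The remaining 2 listed genes were not called. Myh7, the slow heavy chain that skeletal muscle also uses, had a log2 fold change of -0.15 (adjusted p = 0.676), and Sln, a regulator of the calcium pump, -1.18 (adjusted p = 0.386). After O2, Sln was at 16.2 CPM in animal 59 and 36.5 CPM in animal 60, both with high skeletal muscle markers, and at 1.36 to 5.42 CPM in the other 4. Outside the list, Mybphl, a myosin-binding protein of atrial muscle, fell by 2.94 and Tnnc1 (troponin C) by 2.19. Of the genes named after their values were seen, Kcnj3, a potassium channel subunit of atrial cells, fell by 3.23, Tbx20, a cardiac transcription factor, by 1.82 and Rbm20, a splicing regulator of titin, by 0.89. Kcnj3 rests on 125 reads in RA and 22 in O2. Myl2, the light chain of ventricular muscle, was at or near 0 throughout, with at most 0.354 CPM in RA and 0.260 CPM in O2. Transcripts of this ventricular marker were thus nearly absent in both arms.

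The loss of heart muscle transcripts was as large without the libraries that stood apart. Over the 10 called genes the median was -2.11 with 12 animals and -2.06 without the 5 libraries, where 2 of the 10 stayed called among 7 animals (adjusted p from 0.0019 to 0.195). All 10 were called in each of the 12 fits that left out 1 animal, and in the fit of counts thinned to the smallest library. At that equal depth 3 of the 7 cell division genes, 2 of the 5 erythroid genes, 2 of the 3 interferon genes and 0 of the 3 NK genes were still called by edgeR. Squamous markers spanned both arms, from 1.41 to 2543 CPM in RA and from 1.04 to 3301 CPM in O2.

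Markers of fat, mesothelium and liver also had negative values. Nerve and glia genes were mixed (3 of 5 tested positive, median 0.04). Of 8 thymocyte genes tested 7 were negative (median -0.13), with 0 called by edgeR in either list. All 11 fat genes tested were negative (median -0.92, 5 at an unadjusted p under 0.05, 1 called), with a summed level of 190 to 306 CPM in RA and 165 to 237 CPM in O2. All 6 mesothelium genes were negative (median -0.40, 3 at an unadjusted p under 0.05, 0 called by edgeR), at 461 to 678 CPM in RA and 380 to 704 CPM in O2. The 3 liver genes tested of 11 had a median of -1.98, with 1 called, at 2.68 to 25 CPM in RA and 1.82 to 4.52 CPM in O2. The called gene is Hamp, whose own value is this median and which is given again below among the genes of the study. In public single-cell lung data, the paper found Hamp highest in vascular endothelium. Each of these lists overlapped between the arms, and their part in the heart muscle result was not tested.

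**Figure D2:**
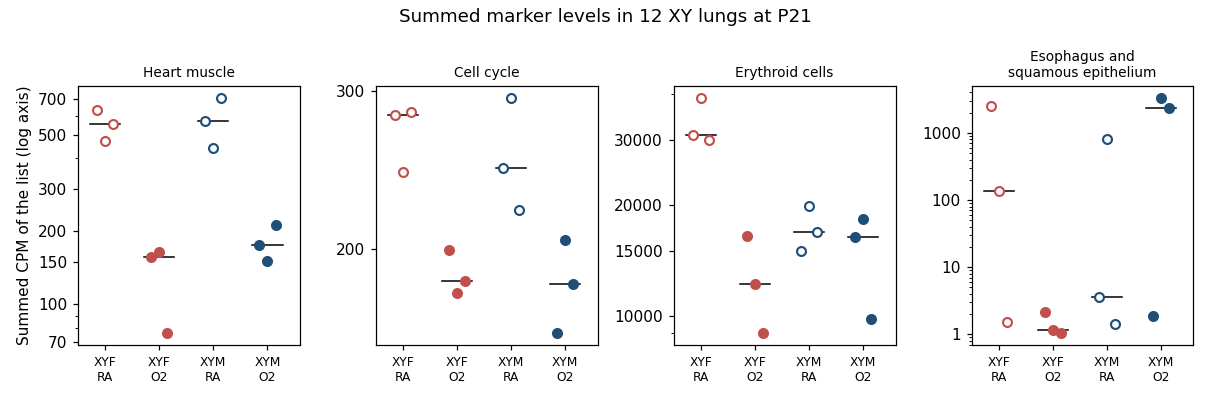
Summed CPM of 4 marker lists (y axes, log scale) in each of 12 lungs, by genotype and treatment; open points are RA, filled points O2, and the line is the median of 3. Heart muscle separates the treatments (442 to 709 CPM against 76.1 to 212 CPM), the erythroid list is highest in XYF lungs in RA, and squamous markers are high in 5 lungs of both arms.

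Since the heart muscle genes moved together, their promoters were searched for shared motifs. RefSeq windows on GRCm38.p6, from 250 bases before to 50 after the start, were found for 10 of 10 called genes in 11 windows. The CArG box, bound by serum response factor in muscle genes, stood in 2 of the 11 windows (those of Actc1 and Myl7), against 1.63% of 32851 windows in all. AGATAA, a motif of GATA factors, stood in 2 of the 11 (Tnnt2 and Ankrd1), against 11.2% of all, and in 0 of the 3 windows found for the 5 called erythroid genes. Both strands were searched. The Myl7 window, chr11:5898733-5899032 on the minus strand, is shown as an example of a window with a CArG box, in capitals. A match is a description of these letters and not a shown binding site.

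Myl7: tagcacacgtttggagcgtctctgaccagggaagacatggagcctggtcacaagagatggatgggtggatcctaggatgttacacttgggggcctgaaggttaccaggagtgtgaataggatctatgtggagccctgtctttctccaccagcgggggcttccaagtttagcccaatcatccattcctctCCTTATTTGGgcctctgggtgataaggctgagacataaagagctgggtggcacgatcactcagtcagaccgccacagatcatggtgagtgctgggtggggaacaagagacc

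Genes of red blood cells were the next group. Of 12 tested, 5 were called lower and 0 higher, and the median was -1.19 on the log2 scale. Slc4a1, the anion exchanger of the red cell membrane, measured 38.1, 72.5 and 160 CPM in RA and 18.3, 26.7 and 38.3 CPM in O2 (log2 -1.65 ± 0.36, adjusted p = 0.0475). The arms met at 1 pair of animals, RA animal 48 and O2 animal 58. Rhag, a membrane channel of the Rh complex, went from 0.474, 2.26 and 3.31 CPM to 0.163, 0.393 and 0.903 CPM and fell by 2.36, with overlapping arms. It rests on 194 reads in RA and 56 in O2. Slfn14, a ribonuclease active in red cell precursors, fell by 2.49 and Ermap, a red cell surface protein, by 1.87. The globin genes were not called: Hba-a1 had a log2 fold change of -1.002 (adjusted p = 0.0687) and Hbb-bs -0.65 (adjusted p = 0.202). Reads of near-identical globin copies may have been split by the counting. Outside the list, and named after their values were seen, Hemgn, Trim58, Trim10, Kel, Cldn13 and Fech were also called lower, by 0.74 (Fech, the last enzyme of heme synthesis) to 2.81 (Hemgn, a nuclear protein of erythroid precursors).

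The fall of the erythroid list lay mainly between XYF groups, with a median over its genes of -1.73 in XYF mice and -0.69 in XYM mice. The summed list ran from 30038 to 39037 CPM in XYF lungs in RA and from 8986 to 16513 CPM in XYF lungs after O2. In XYM lungs it ran from 15025 to 19891 CPM in RA and from 9812 to 18381 CPM in O2, which overlap. These sums lie far above the levels of the called genes Slc4a1 and Rhag given above, and say little about either. The difference of the responses between the genotypes was not called for any of the 5 genes (lowest adjusted p of that difference over all genes, 0.807). With 1 animal left out, the number of called erythroid genes ran from 1 (without any of 43, 46, 47, 60, 61, 63 or 64) to 5. Without the 5 libraries that stood apart it was 0, and the median over the 5 genes went from -1.87 to -1.16.

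Genes of cell division were lower to a smaller degree. Of 22 listed genes, all tested, 7 were called lower and 0 higher, all 22 had a negative fold change, and the median was -0.59. The summed list measured 221, 264 and 295 CPM in RA and 161, 183 and 205 CPM in O2, with no overlap. Mki67, a mark of cycling cells (ENSMUSG00000031004, chr7:135689784-135716361 on GRCm38), measured 28.8, 36.1 and 45.4 CPM in RA and 16.0, 18.2 and 21.1 CPM in O2. The exposed level was 1.94-fold lower (log2 -0.95 ± 0.11, adjusted p = 0.00221). Nusap1, a spindle protein, fell by 0.97, Cenpf, a kinetochore protein, by 1.11 and Ccnb1, the cyclin of mitosis, by 0.90. Kif11, a spindle motor, fell by 0.85, Top2a, which untangles DNA, by 0.78 and Rrm2, a subunit of ribonucleotide reductase, by 0.70. The replication helicase genes Mcm3 and Mcm6 had values of -0.10 (adjusted p = 0.506) and -0.11 (adjusted p = 0.469). Named after their values were seen, Hmmr, Ube2c, Spag5 and Dtl were called lower too, by 0.74 to 1.21.

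Mki67 and Nusap1 were called in each of the 12 fits with 1 animal left out, and the list's count ran from 2 (without animal 63) to 9 (without animal 59). Without the 5 libraries that stood apart 0 were called, with a median over the 7 genes of -0.91 against -0.90 in the 12 animals. In RefSeq windows of the 7 genes, CCAAT stood in 6 and TTTGAA, a core of cell cycle promoters, in 4, on either strand. Over 32851 windows CCAAT stood in 37.4% and TTTGAA in 17.9%. The Mki67 window, chr7:135716330-135716629 on the minus strand, holds both and is shown with them in capitals.

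Mki67: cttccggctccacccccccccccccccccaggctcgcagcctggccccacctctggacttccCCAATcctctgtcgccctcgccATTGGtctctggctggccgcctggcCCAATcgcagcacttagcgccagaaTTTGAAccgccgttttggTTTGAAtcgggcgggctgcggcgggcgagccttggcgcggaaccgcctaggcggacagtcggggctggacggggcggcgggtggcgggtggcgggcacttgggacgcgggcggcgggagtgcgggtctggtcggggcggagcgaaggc

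Immune genes were lower in small numbers. Of 8 NK cell genes, 3 were called lower and 0 higher, with a median of -0.94: Ncr1, Klrb1c and Gzma. Ncr1, an activating receptor of NK cells, measured 0.473, 1.06 and 1.58 CPM in RA and 0.130, 0.239 and 0.577 CPM in O2 (log2 -1.78 ± 0.29, adjusted p = 0.0149). These levels are near the floor, with 72 reads in all RA libraries (4 to 22 each) and 39 in all O2 libraries (2 to 10 each). In XYM lungs in RA Ncr1 was at 1.42 to 1.58 CPM, and in XYF lungs in RA at 0.473 to 0.698 CPM. Gzma, a protease of killer granules, fell by 1.31 and Klrb1c (NK1.1) by 1.24. Klrd1 and Nkg7, the more abundant members with Gzma, had values of -0.70 (adjusted p = 0.139) and -0.33 (adjusted p = 0.664). Klra4 fell too, but its family of receptors is near-identical and its counts are uncertain.

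Of 20 interferon response genes, 3 were called lower and 0 higher, with a median of -0.30. Rsad2 (viperin), an antiviral enzyme, measured 48.2, 65.9 and 151 CPM in RA and 21.5, 31.5 and 39.7 CPM in O2. It was 2.67-fold lower (log2 -1.41 ± 0.23, adjusted p = 0.0149) and its arms did not overlap. Oas2, which makes 2′-5′ oligoadenylates in response to viral RNA, measured 13.3, 18.4 and 22.8 CPM in RA and 7.48, 8.82 and 12.3 CPM in O2 (log2 -0.96 ± 0.14). Mx1, an antiviral GTPase, fell by 0.86. Of genes named after their values were seen, Oas3 fell by 1.32, Phf11b by 0.84, Slfn8 by 0.75 and Ifi204 by 0.67. The most abundant members, Bst2, Irf9 and Stat2, had values from -0.11 to 0.04, with adjusted p of at least 0.614. At an unadjusted p under 0.05, 8 of the 20 passed.

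Of the interferon genes, Rsad2 is called without the 5 libraries as well (log2 -1.05, adjusted p = 0.0397), and Oas2 in each of the 12 fits with 1 animal left out. With 1 animal left out, the interferon count ran from 1 (without 63) to 4 (without 43) and the NK count from 1 (without 60) to 4 (without 61). Without the 5 libraries the NK count was 0, with a median over the 3 genes of -1.59 against -1.31. RefSeq windows were found for Rsad2 and Oas3, and each holds an interferon-stimulated response element, searched on both strands as 2 copies of GAAA with any 2 bases between them and shown in capitals. Over 32851 windows it stood in 3.44%. The windows were printed because they hold it. The windows are chr12:26456403-26456702 (Rsad2) and chr5:120777610-120777909 (Oas3), both on the minus strand.

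Rsad2: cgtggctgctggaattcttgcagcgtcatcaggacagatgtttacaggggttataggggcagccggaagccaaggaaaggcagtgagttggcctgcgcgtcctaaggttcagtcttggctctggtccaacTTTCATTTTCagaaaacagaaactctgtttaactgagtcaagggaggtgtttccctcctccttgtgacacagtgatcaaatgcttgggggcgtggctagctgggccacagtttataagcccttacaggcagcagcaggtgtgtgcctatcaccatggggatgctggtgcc
Oas3: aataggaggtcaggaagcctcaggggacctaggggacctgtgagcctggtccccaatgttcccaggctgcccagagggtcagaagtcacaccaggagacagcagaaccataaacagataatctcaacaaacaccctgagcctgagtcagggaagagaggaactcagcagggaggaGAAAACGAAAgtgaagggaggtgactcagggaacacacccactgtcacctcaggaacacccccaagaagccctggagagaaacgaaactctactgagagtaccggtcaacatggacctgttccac

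Other lower genes of immune cells were the single called members of lists that leaned lower. Xcr1, a chemokine receptor of cross-presenting dendritic cells, fell by 0.82 among 8 dendritic cell genes. Of these 8, 6 were negative (median -0.34), and 6 passed an unadjusted p under 0.05 in either direction. Ciita, the master regulator of MHC class II, measured 15.1, 17.4 and 19.4 CPM in RA and 8.80, 10.1 and 12.5 CPM in O2 (log2 -0.73 ± 0.11, adjusted p = 0.01), and was the only member called of 12 in its list. Xcr1 was called in 2 of the 12 fits with 1 animal left out and Ciita in all 12, and neither was called without the 5 libraries. All 12 genes of the MHC class II list were negative (median -0.34), and 7 passed an unadjusted p under 0.05. Cd74, the invariant chain, had a value of -0.56 (adjusted p = 0.0744). Among genes named after their values were seen, markers of macrophages and monocytes fell: Cd163 by 0.88, Timd4 by 1.45, Fcrls by 0.69, Ms4a6c by 0.84 and F13a1 by 0.68. Of the fixed lists, however, 0 of 10 genes of interstitial macrophages and monocytes and 0 of 10 of alveolar macrophages were called, with medians of -0.21 and -0.26. All 11 neutrophil genes had negative values (median -0.89) and 0 were called. Their summed level ran from 333 to 1229 CPM in RA and from 229 to 511 CPM in O2, so the arms overlapped. At an unadjusted p under 0.05, 7 of the 11 passed.

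**Figure D3:**
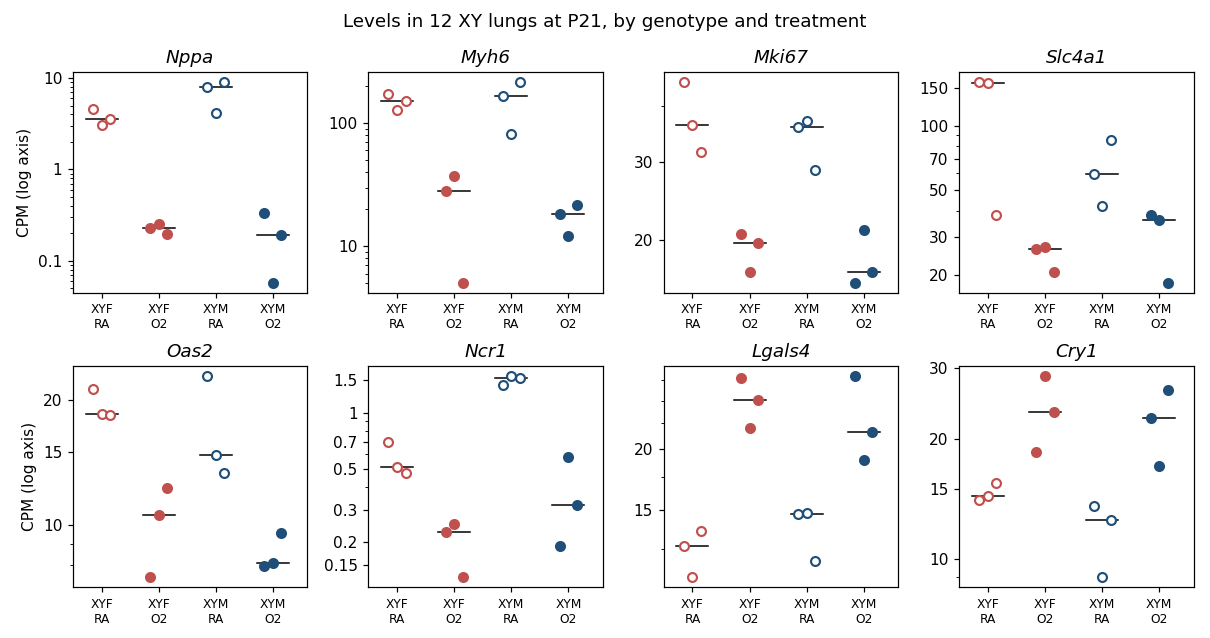
CPM (y axes, log scale) of 8 genes in each of 12 lungs, by genotype and treatment; open points are RA, filled points O2, and the line is the median of 3. Nppa, Myh6, Mki67 and Oas2 are lower in every exposed lung than in every room-air lung, Lgals4 and Cry1 are higher in every exposed lung, and Slc4a1 and Ncr1 overlap between the arms.

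Genes that rose were fewer and mostly modest. Lgals4, a sugar-binding lectin of epithelia (ENSMUSG00000053964, chr7:28833854-28841708 on GRCm38), had the smallest p. It measured 11, 13.1 and 14.8 CPM in RA and 19, 23.5 and 28 CPM in O2. The exposed level was 1.83-fold higher (log2 0.88 ± 0.12, adjusted p = 0.00705) with no overlap. Cry1, a repressor of the circadian clock, measured 9, 13.8 and 15.5 CPM in RA and 17.1, 22.9 and 28.7 CPM in O2 (log2 0.79 ± 0.14, adjusted p = 0.0186). It was the only 1 called of 18 clock genes, of which Tef, Per1 and Nr1d2 were the most abundant (adjusted p from 0.141 to 0.901). Tcf21, a transcription factor of lung fibroblasts that store lipid, rose from 76.9, 125 and 151 CPM to 157, 201 and 243 CPM (log2 0.75 ± 0.15). It was the 1 called of 9 alveolar fibroblast genes. Dll1, a ligand of Notch receptors, rose by 0.60, with 27.8, 30.3 and 37.2 CPM in RA against 43.9, 48.5 and 53.1 CPM in O2.

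The other named genes that rose were Spink5 (a protease inhibitor of squamous epithelia, log2 1.01), Chst8 (a sulfotransferase, 0.97), Snhg11 (a host gene of small nucleolar RNAs, 0.66), Lag3 (an inhibitory receptor of T cells, 0.86), Mpp3 (a scaffold protein of cell junctions, 0.86), Pgbd5 (a gene derived from a transposase, 0.83), Ppp4r4 (a phosphatase subunit, 0.65), Enox1 (0.88), BC022960 (0.75), Gm40117 (1.49) and Tbx3os1 (0.98). Tbx3os1 lies antisense to Tbx3, and the strand setting of the counting is not given, so its value is uncertain. Spink5 rose while the squamous list, of which it is no member, had 0 called of 10. Of the 15 named genes that rose, Lgals4 and Gm40117 were called in each of the 12 fits with 1 animal left out, and Pgbd5 in none of them. Enox1 was called in 1 of these fits, Mpp3 in 2, and Chst8 and Lag3 in 4. Dll1 lost its call in 7 of the 12 fits, Tcf21 in 6 and Cry1 in 3. Without the 5 libraries that stood apart, Spink5 was the 1 still called of the 15 (adjusted p = 0.375 for Cry1 and 0.670 for Chst8).

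Most structural cell types showed no called gene. Of 10 AT1, 10 AT2, 8 club and goblet, 10 ciliated, 8 and 8 capillary, 10 shared endothelial and 6 lymphatic genes, 0 were called by edgeR. Their medians lay between -0.17 and 0.07. Sftpc, the surfactant protein of AT2 cells, had a value of 0.06 (SE 0.13) and Ager, a receptor of AT1 cells, 0.06 (SE 0.12). Their lists leaned the other way. Of the 10 AT2 genes 9 were negative (median -0.17), with 3 at an unadjusted p under 0.05. Of the 10 AT1 genes 7 were negative (median -0.05), with 1 at an unadjusted p under 0.05. Cldn5, a junction protein of endothelium, rose within the adjusted p (0.0272) but by less than 1.5-fold (log2 0.44). None of 21 extracellular matrix genes, 20 angiogenic genes, 18 HIF targets, 14 p53 targets or 15 NRF2 targets was called, and their medians lay between -0.10 and 0.14. Cdkn1a, the p53 target that stops the cell cycle, had a value of 0.65 (adjusted p = 0.0539). At an unadjusted p under 0.05, 4 matrix, 2 angiogenic, 5 HIF, 5 p53 and 2 NRF2 genes passed, against 17.1% of all tested genes.

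Contractile and support cells had mostly positive values without a call. All 8 smooth muscle genes (median 0.36) and all 7 pericyte genes (median 0.22) had positive values, as did 6 of 8 alveolar myofibroblast genes (median 0.19), and 0, 3 and 3 of them passed an unadjusted p under 0.05. The 12 heat shock protein genes were all positive (median 0.28, 5 at an unadjusted p under 0.05), and 14 of 17 glucocorticoid targets were (median 0.35, 7 at an unadjusted p under 0.05), with 0 called by edgeR in either list. Among lymphocytes and platelets, 0 of 11 B cell, 0 of 9 T cell and 0 of 8 platelet genes were called, with medians of -0.44, 0.00 and -0.10 and 3, 0 and 1 genes at an unadjusted p under 0.05.

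The 13 genes named by the study's own analysis were chosen on animals of this series, some of them at P5 or in XX mice. Their values here are no independent evidence. The paper also measured these genes other than Apln by qPCR in a separate cohort of FCG mice. It reports good correlation with the sequencing, and the qPCR was not analysed here. Of the 12 tested, Hamp, Tlr7 and Rsad2 were called, each lower. Hamp, the iron regulator hepcidin, measured 1.11, 1.90 and 3.19 CPM in RA and 0.260, 0.384 and 0.813 CPM in O2 (log2 -1.98 ± 0.34, adjusted p = 0.0196). It rests on 157 reads in RA and 71 in O2. Tlr7, an X-linked sensor of RNA, measured 16.1, 25 and 25.7 CPM in RA and 12.1, 14 and 16.6 CPM in O2 (log2 -0.67 ± 0.12, adjusted p = 0.021). Peg3, an imprinted growth gene, had a value of 0.78 (adjusted p = 0.0539) and Nr1d1, a clock repressor, -0.88 (adjusted p = 0.102). Hk3, Ltf, Alox15, Flt3, Zbtb16, Hif3a and Apln were not called, with adjusted p from 0.085 to 0.788. Prokr2 was not tested, with 3 reads in 6 RA libraries and 5 in 6 O2 libraries. Cidec, a lipid droplet protein and the 1 called of 11 fat genes, fell by 0.65. Outside every list, Mapk10, a stress-activated kinase, measured 1.10, 1.82 and 2.72 CPM in RA and 0.260, 0.330 and 0.476 CPM in O2 (log2 -2.36 ± 0.27). Mmp3, a matrix protease, measured 22.5, 25.5 and 29.4 CPM in RA and 10.6, 11.9 and 16.6 CPM in O2 (log2 -0.98 ± 0.13). Neither gene overlapped between the arms, and both were called in each of the 12 fits with 1 animal left out.

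Taken genotype by genotype within the 12 animals, few of the pooled calls were called in a single genotype, and more in XYF than in XYM mice. In the fit of 4 group means, 31 genes were called in XYF mice (0.179%; 28 lower, 0.162%) and 3 in XYM mice (0.0173%). Of the 123 pooled calls, 22 were among those of XYF mice and 2 among those of XYM mice. List medians were lower in XYF mice for heart muscle (-2.35 against -1.78), erythroid (-1.73 against -0.69) and cell cycle genes (-0.67 against -0.48). They were lower in XYM mice for NK (-1.37 against -0.59) and interferon genes (-0.33 against -0.25). All 123 pooled calls had the same sign in both genotypes, a count that pooling favours. The difference of the responses, XYM minus XYF, was called for 0 genes by edgeR, for 3 by DESeq2, and 741 passed an unadjusted p under 0.05 (4.28%). The smallest adjusted p was 0.807, which Gsta4 (1.04 ± 0.24) and Cass4 (-1.18 ± 0.28) had, given as differences of log2 fold changes. Cass4, an adaptor of adhesion signalling, measured 6.57, 6.88 and 7.33 CPM in XYF lungs in RA against 12.2, 16.0 and 18.1 CPM in XYM lungs in RA. For Nppa the difference was -1.07 and for Mki67 0.12.

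Against XX mice, which share no animal with the XY groups, the response differed in few genes. Over all 24 animals at P21, 560 of 17937 genes were called in XX mice (3.12%; 438 lower, 2.44%). The difference of responses, XY minus XX, was called for 11 (0.0613%), of which 5 were higher (0.0279%) and 6 lower (0.0335%). Of the 123 genes, 47 were called in XX mice, 45 of them in the same direction, and 4 differed between XX and XY. Among them were the erythroid genes Slfn14, Rhag and Cldn13, each lower after O2 in XY mice and with a positive value in XX mice. Rhag differed by -4.34 ± 0.72 on the log2 scale (adjusted p = 0.0356), with 1.93 in XX mice, and Slfn14 by -3.36 ± 0.55, with 0.88 in XX mice. This call depends on single animals: with 1 of the 24 left out, 0 genes were called in 19 fits and in the other 5 the count was 223 (without XXM animal 39), 76 (without 48), 55 (without 42), 32 (without 51) and 26 (without 58). In RA the summed erythroid list was 14017 to 15512 CPM in XXF lungs and 12059, 13059 and 27269 CPM in XXM lungs. Room-air XY lungs stood at 15025 to 39037 CPM. After O2 the list ran from 10197 to 29862 CPM in XX lungs and from 8986 to 18381 CPM in XY lungs. How far the room-air levels make the difference of responses was not tested. Rhag was a small part of this sum in XY lungs.

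Among cell cycle genes, 20 of 22 were called lower in XX mice, with a median of -1.97. The response differed between XX and XY for 3 of the 22, calls that are among the 11 above and were absent in the same 19 fits. In XX lungs the summed list ran from 692 to 739 CPM in XXF mice in RA and from 242 to 737 CPM in XXM mice in RA, against 182 to 228 CPM after O2. Exposed XY lungs ran from 161 to 205 CPM, which overlaps the exposed XX range, though every exposed XXF lung (208 to 228 CPM) lay above it. Most room-air XX lungs lay above those of XY mice (221 to 295 CPM). Heart muscle genes had a median of -1.11 in XX mice, 3 of 12 were called lower, and 0 differed from XY mice. Their summed level after O2 ran from 114 to 248 CPM in 5 XX lungs and was 1037 CPM in 1 XXF lung.

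**Figure D4:**
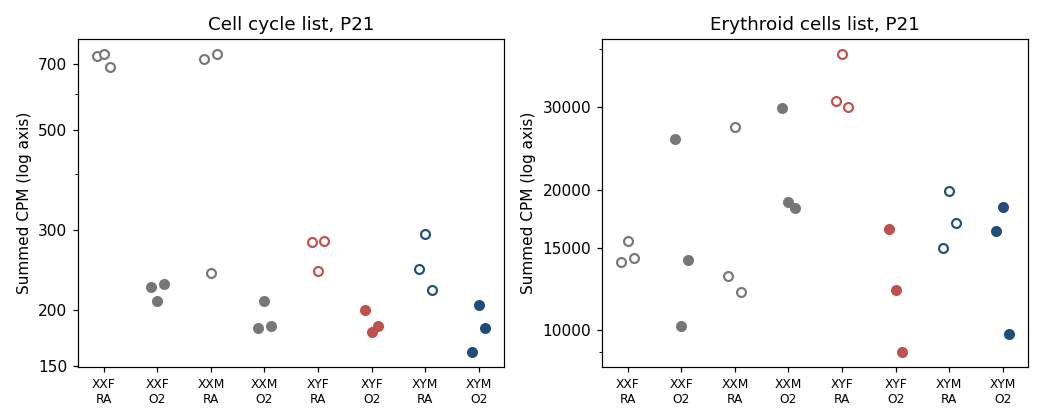
Summed CPM (y axes, log scale) of the cell cycle and erythroid lists in 24 lungs at P21, by genotype and treatment; each point is a lung, open for RA and filled for O2. Room-air cell cycle levels are 221 to 295 CPM in XY lungs and up to 739 CPM in XX lungs, and the erythroid list is highest in XYF lungs in RA (30038 to 39037 CPM).

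At the end of exposure (P5) the XY response was another one. In 12 other XYF and XYM animals, 1502 of 18079 genes were called at P5 (8.31%; 581 higher, 3.21%, and 921 lower, 5.09%). The difference of the responses, P21 minus P5, was called for 1936 genes (10.7%; 931 higher, 5.15%, and 1005 lower, 5.56%), among them 86 of the 123. Of the 123, 28 were called at P5, 18 in the same direction and 10 in the opposite one. Of the cell cycle genes, 15 of 22 were called lower at P5 against 7 at P21, and 2 differed between the ages. Mki67 had a log2 fold change of -0.92 there, with a difference of -0.04 (adjusted p = 0.923). Heart muscle genes were not called at P5 (0 of 12 by edgeR, median -0.12), and 8 of 12 differed between the ages. Myh6 had a value of -0.08 at P5 (adjusted p = 0.932) and a difference of -2.82 (adjusted p = 0.00417). Nppa had 0.87 at P5 and a difference of -5.42 (adjusted p = 0.0118).

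Erythroid genes were lower at both ages, with 6 of 12 called at P5 (median -0.64) and 3 that differed between the ages.

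Some interferon and fibroblast genes changed sign between the ages. Oas2 rose by 0.73 at P5 and fell by 0.96 at P21 (adjusted p of the difference 0.000154), and 10 of 20 interferon genes differed between the ages. Tcf21 had a value of -0.58 at P5 and rose by 0.75 at P21 (adjusted p of the difference 3.48e-05). Chst8 fell by 2.22 at P5 and rose by 0.97 at P21, and Lag3 fell by 1.09 at P5 and rose by 0.86 at P21. The 3 genes with the smallest adjusted p of the difference were not called at P21: Ccl6, a chemokine of myeloid cells, rose by 1.69 at P5 and had a value of -0.41 at P21. Kcnk3, a potassium channel, fell by 0.92 at P5 and had 0.29 at P21. Adcy8, an adenylyl cyclase, fell by 1.62 at P5 and had 0.01 at P21.

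**Figure D5:**
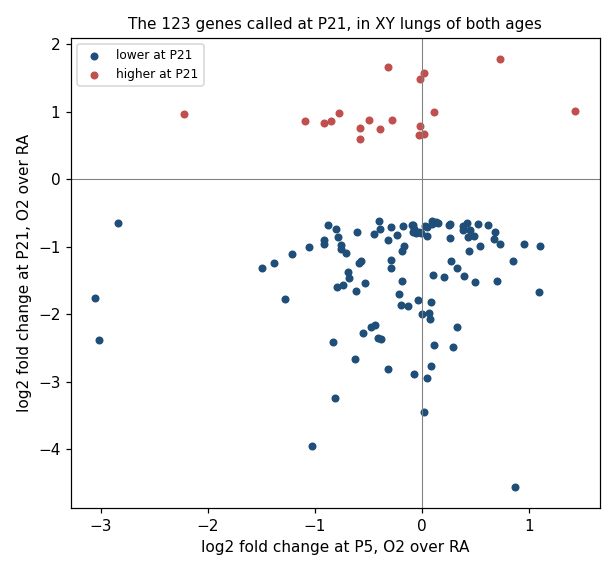
Log2 fold change, O2 over RA, in XY lungs at P5 (x axis) and P21 (y axis) for the 123 genes called at P21; blue points are lower and red points higher at P21. The lower genes spread to both sides of 0 at P5, with Nppa lowest at P21, and 10 of the 28 genes called at both ages lie in opposite directions.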

How the data were processed

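Whole-lung RNA of FCG mice was sequenced in 1 library per animal, by the labels as 2 × 76 bp pairs on a NextSeq 500 from oligo-dT enriched RNA. The values are raw read counts per gene, deposited by the authors as whole numbers without normalization. The submitters' processing notes name HISAT2, featureCounts and mm10. For their versions, the annotation release and the strand setting, no source used here gives a value. Of 52550 gene identifiers 52403 were matched to GENCODE names on GRCm38, and 147, with 0.0082% of counts, were not. All count columns but 1 matched a title. The column of animal 34, an XXF mouse in RA, gives day 1, its title day 21 and its age field day 5, and the title was followed. The animal enters only the XX comparison.

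Counts were fitted with edgeR 4.0.16 in R 4.3.3 (two-sided quasi-likelihood test after TMM scaling, low genes removed with filterByExpr using the groups), on the 12 animals with genotype and treatment (9 residual degrees of freedom). Differences of responses were fitted with group means on 12 or 24 animals. P-values were adjusted by Benjamini-Hochberg over all tested genes, and a call needed both an adjusted p below 0.05 and a 1.5-fold change. SE were derived from the same fit, as the absolute log2 fold change divided by the square root of the F statistic. Animals of 1 group differed by 7.77 to 61.7 chi-square units per degree of freedom, beyond counting noise, and 12 pairs were compared. The biological coefficient of variation was 0.2. The steps were tested on simulated counts.

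The members and the 46 gene lists were chosen with earlier results of these data known. Named genes are the 15 with the smallest p in each direction among called genes of at least 1 CPM, called and the most abundant members of described lists, the genes the study names, 4 Y genes, and the top 3 of each difference. Others are said to be named after their values were seen. Some named items are not reported here. Alternatives were DESeq2 1.42.0, RLE factors, other filters and thresholds, sva 3.50.0, thinned counts and each animal left out. Promoters come from RefSeq (GRCm38.p6). Figures were drawn with matplotlib 3.10.9. Lung histology was not analysed here.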

Additional observations from a re-analysis of the deposited data

Results flagged for a closer look

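Between XY and XX mice at P21, 11 genes were called in the difference of the hyperoxia responses, averaged over both gonad types. The difference, XY minus XX on the log2 scale, was -3.36 for Slfn14, -4.51 for Gm32051, -4.34 for Rhag, -4.24 for Cldn13 and -4.68 for Btnl10, which are genes with lower values after O2 in XY mice and higher ones in XX mice. It was 1.76 for Ccna2, 2.05 for Eme1, 1.69 for Prc1, 1.70 for Tpx2 and 1.83 for Cdc20, all genes of cell division or DNA repair with a lower value in XX mice than in XY mice. The adjusted p of these 11 lay between 0.0356 and 0.0393, and 0 were called in 19 of the 24 fits that left out 1 animal.

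Between the ages, the hyperoxia response of XY mice differed in 1936 genes. The difference, P21 minus P5 on the log2 scale, was -2.12 for Ccl6, 1.20 for Kcnk3 and 1.62 for Adcy8. Of the 123 genes called at P21, 86 also differed between the ages, and the ages share no animal. The collection day of the earlier age is day 7 in the series text and P5 in the titles.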

How the results depend on the processing

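For the hyperoxia response of XY lungs at P21 (123 genes), DESeq2 called 317, no filter beyond 1 count 223, no fold minimum 200, an unadjusted p 752, counts thinned to 6331654 reads 56 and XYF animals alone 26. XYF animals alone gave 1974 of 16873 tested genes at an unadjusted p below 0.05, and 311 with DESeq2. XYM animals alone gave 0 with edgeR (1377 of 16422 tested genes had an unadjusted p below 0.05) and 58 with DESeq2. Leaving out animals 42, 46, 47, 59 and 60 together, an alternative chosen after seeing the data, gave 17. With 1 animal left out the count ran from 42 to 155. RLE factors gave 126, all 24 P21 animals 123 (84 shared), no genotype term 152 and 1 surrogate variable 174. The count of called heart muscle genes was 10 in each of these fits except all 24 animals (8), XYF alone (3), XYM alone (0) and the 5 animals left out (2).

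For XYM minus XYF (0 genes), DESeq2 called 3 and no filter 186, and each fit with 1 animal left out 0. For XY minus XX (11 genes), DESeq2 called 148 and no filter 96, and with 1 animal left out the count ran from 0 to 223. For P21 minus P5 (1936 genes), no fold minimum called 4143, and with 1 animal left out the count ran from 1652 to 2168. No named gene that was called changed sign in any alternative run. No paired analysis was possible because the animal numbers are not shared between groups. The smallest change detectable at this depth was not measured.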
